A study of Mus musculus with 267 samples.

Results

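In bone marrow-derived macrophages (BMDMs) of C57BL/6J (C57) mice, 233 of 77955 open chromatin regions gained the histone mark H3K27ac after 1 h of interleukin-4 (IL-4) and no longer met the same threshold at 6 or 24 h. Each region is 1000 bp around the centre of a peak of accessible chromatin, and its H3K27ac value is the number of sequenced tags there per 10000000 tags of the library (normalized tags). Members were chosen on these values. The replicate mean at 1 h plus 1 had to be at least 2.5 times the basal mean plus 1, with the larger of the means at 16 normalized tags or more, and this could not hold at 6 h or at 24 h. Members were 0.299% of all regions. In all, 1800 regions (2.31%) met the threshold at 1 h, of which 902 met it at every time, 618 at 1 and 6 h and 47 at 1 and 24 h.

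Chromatin immunoprecipitation sequencing (ChIP-seq) was performed in BMDMs grown from marrow of female mice of 8 to 12 weeks, cultured for 7 days with macrophage colony-stimulating factor. C57 cells without IL-4 (basal) or with 20 ng/mL IL-4 for 1, 6 or 24 h gave 2 H3K27ac libraries per time. RNA polymerase II (Pol II) had 4 basal libraries, 1 at 1 h, 2 at 6 h and 3 at 24 h. BMDMs of the strains SPRET/EiJ, PWK/PhJ, NOD/ShiLtJ and BALB/cJ (called SPRET, PWK, NOD and BALB), with basal and 24 h libraries alone, and peak lists of the transcription factors STAT6, EGR2, PU.1, C/EBPβ and PPARγ from C57 cells were used as well. The labels call the libraries of a group biological replicates, and where nothing says that they came from separate animals, p-values measure the spread between libraries, which may be technical. These are bulk cultures of one cell type in vitro, in which fewer cells carrying a mark and less mark per cell cannot be told apart.

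IL-4 binds its receptor on macrophages and activates Janus kinases, which phosphorylate STAT6. STAT6 then enters the nucleus within minutes and binds DNA at palindromic TTC and GAA half-sites set a few bases apart. H3K27ac is deposited by the acetyltransferases p300 and CBP at active enhancers and promoters, and it can be removed by histone deacetylases. Pol II is recruited to active promoters and also transcribes short RNAs from active enhancers. EGR2 is a transcription factor that IL-4 induces and that acts later in the response, while PU.1 and C/EBPβ help to open macrophage enhancers.

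Of the members, 73 (31.3%) held the STAT6-type motif, TTC and GAA with 4 bases of any kind between them, in their central 200 bp, against 6.04% of all regions and 35.4% of the 902 regions raised at every time. The windows printed here show where this motif lay in members with a large H3K27ac fold at 1 h. They were chosen by the rule for named regions, among those with a STAT6 peak at 1 h. They are on the plus strand of mm10 from the reference genome, 5′ to 3′, with the motif in capitals and 10 bases on each side.
Vti1a, chr19:55577662-55577691: aacacgacctTTCACTAGAAatgcttaaaa
D830013O20Rik, chr12:73370508-73370537: tcagaaacaaTTCTGAAGAAgtggcagtct
Megf9, chr4:70507434-70507463: catatggcagTTCTCAAGAAattaaaaata
9230102O04Rik, chr2:9890119-9890148: gaagttgggcTTCCAAAGAAacttggaggc
Clec16a, chr16:10668726-10668755: tgcagttcccTTCTTAAGAActgacctcat
Cryzl1, chr16:91689854-91689883: tctgaacaacTTCCATGGAAacctttgcct
The region nearest Hs1bp3 held 3 such motifs in its centre, and the one with a match closest to the middle read as follows.
Hs1bp3, chr12:8400562-8400591: caaagttttcTTCTAAGGAAgcaatgagtc
A STAT6 peak at 1 h was required of these 7 regions, so its presence in each is no result, and none had a peak at baseline. Calr3 and Il1f9, also among the named regions, held the motif without a STAT6 peak at any time.

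The libraries differed in ways that bear on membership. The time-course libraries held between 7796479 and 29050468 tags, which makes 1 normalized tag equal to between 0.780 and 2.91 reads. At 1 h, H3K27ac replicate 1 held 12936233 tags with 44.0% of them inside the regions, and replicate 2 held 29050468 tags with 20.5% inside. The basal libraries had 69.7% and 63.8% inside, the 6 h libraries 51.0% and 50.2%, and the 24 h libraries 46.4% and 41.2%. Over all regions the median ratio of 1 h to basal means was 0.67, so a member had to rise against a general fall on this scale. The promoters of 7 of 7 macrophage marker genes, among them Csf1r, Adgre1 and Spi1, lay in regions with H3K27ac means between 77.4 and 848 over the times. No promoter region was found for the T cell, B cell, neutrophil and epithelial markers, and those of Zbtb46 and Pdgfrb, of dendritic cells and fibroblasts, had means of 1.03 to 5.97.

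Members had low basal H3K27ac that was highest at 1 h and then declined. The median over members was 6.11 and 4.99 normalized tags in the basal libraries, 30.9 and 17.6 at 1 h, 18.5 and 10.3 at 6 h and 10.2 and 9.84 at 24 h. The median fold over basal was 3.28 at 1 h, 2.19 at 6 h and 1.76 at 24 h, on means plus 1. Because these values chose the members, they are a description and no test was applied. The 902 regions raised at every time started from a similar median of 7.91, reached 43.1 at 1 h and peaked later, at 74.4 at 6 h and 53.3 at 24 h. In 175 members the mean fell in order from 1 h to 6 h to 24 h.

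**Figure D1:**
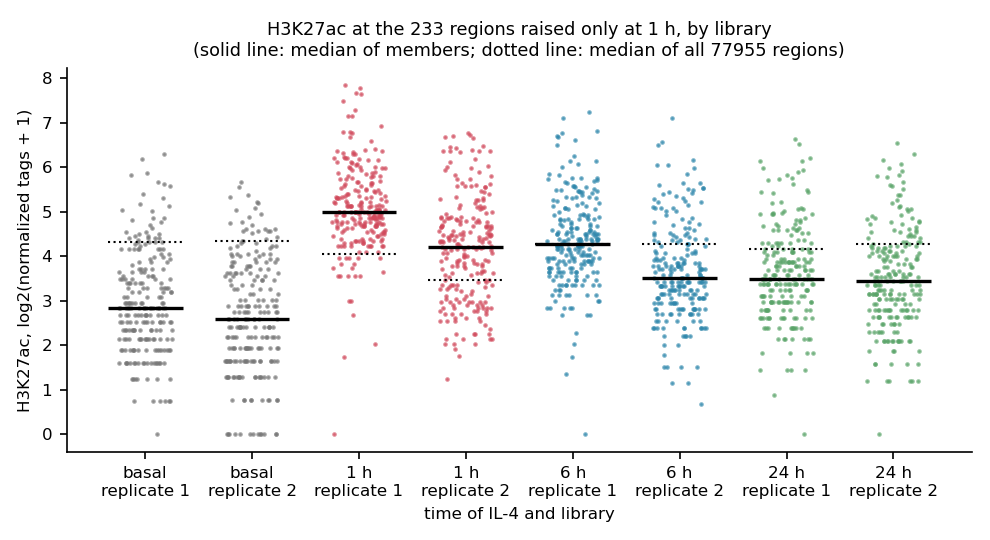
H3K27ac as log2(normalized tags + 1) on the vertical axis in each C57 library, with 1 point per member, a solid line at the median of members and a dotted line at the median of all 77955 regions. Members rise from medians of 6.11 and 4.99 in the basal libraries to 30.9 and 17.6 normalized tags at 1 h, and decline at 6 and 24 h.

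Membership rested in part on the minimum level. Of the members, 78 were still at least 2.5-fold above basal at 6 h and 33 at 24 h, but with means under 16 normalized tags. For 81 members this was so at either time, and 152 were under 2.5-fold at both. At 6 h 70 members lay between 2-fold and 2.5-fold, 35 were under 1.5-fold and 5 were under their basal mean. At 24 h 89 were under 1.5-fold and 34 under basal.

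The 1 h libraries did not weigh equally. Both lay above both basal libraries in 186 members (14% of all regions), a count the rule favours. The 1 h libraries both exceeded both 6 h libraries in 85 members, against 8.34% of all regions, which the rule favours as well. Replicate 1 was higher than replicate 2 at 1 h in 174 members, and at least 2.5 times as high in 92, against 22.9% of all regions. In 52 members the rule was met with each 1 h library alone, a setting added after the data were seen. At Afdn, which encodes a junction protein, replicate 2 carried the rise in both member regions, with 6.96 and 87.4 normalized tags at 1 h in one and 2.32 and 49.2 in the other. These were chosen after their values were seen.

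The members with the largest folds started from almost no H3K27ac. The 20 members with the highest fold among those whose 1 h libraries both exceeded both basal libraries had folds of 7.39 to 18.3 and basal means of at most 3.44 normalized tags. In 9 of them both basal libraries together held 3 reads or fewer. By annotation 11 were intronic, 6 intergenic, 2 at promoters and 1 exonic. A STAT6 peak at 1 h was present in 15 and a basal STAT6 peak in none. In 17 of the 20 replicate 1 was the higher 1 h library, and 6 met the rule with each 1 h library alone. At 6 h 19 of the 20 were still at least 2.5-fold above basal, and at 24 h 13. These missed the threshold at that time only because their means were under 16 normalized tags.

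The highest fold was in intron 2 of 8 of Calr3 (chr8:72438181-72439181), which encodes a calreticulin of the testis. H3K27ac was 0.68 and 0 normalized tags at baseline, 44.1 and 3.1 at 1 h, 23.9 and 3.65 at 6 h and 2.55 and 7.88 at 24 h. Nearly all of its 1 h signal came from replicate 1, and its pooled ratio of 45.2 (7.84 to 1813, 95% exact interval for counting error only) rests on 1 basal read. A region in the last intron of Vti1a (chr19:55577155-55578155), a SNARE of vesicle traffic, was higher in both 1 h libraries. It had 1.36 and 0 normalized tags at baseline, 28.6 and 19.6 at 1 h, 21.6 and 8.52 at 6 h and 18.7 and 5.25 at 24 h. Vti1a held 4 members, as did Sfi1, while Pde4d, a cAMP phosphodiesterase gene, held 3.

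One of these 20 regions was nearest Socs1, whose product inhibits Janus kinases, and lay between genes on chromosome 16. Its H3K27ac was 2.71 and 0 normalized tags at baseline, 24.0 and 10.7 at 1 h, 11.6 and 17.6 at 6 h and 9.34 and 7.88 at 24 h. The 6 h libraries here overlapped those of 1 h. No STAT6 peak was listed at this region at any time, and its central 200 bp held no STAT6-type motif. On the same chromosome, intron 18 of 22 of Clec16a (chr16:10668195-10669195) had 2.04 and 0 normalized tags at baseline, 17.8 and 18.2 at 1 h, 16.2 and 10.3 at 6 h and 17 and 7.88 at 24 h. Its 1 h libraries were the closest to each other of those described, and the nearest start of a protein-coding gene was that of Socs1, at 116841 bp.

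A region in intron 26 of 28 of Med23, a Mediator subunit, lay 18562 bp from the start of Arg1, the arginase gene that marks IL-4 macrophages. It had 0 and 1.43 normalized tags at baseline, 32.5 and 6.54 at 1 h, 11.6 and 8.52 at 6 h and 6.79 and 9.19 at 24 h. STAT6 had a peak there at 1 h and at no other time. The promoter region of the non-coding gene 9230102O04Rik (chr2:9889591-9890591) lay 57 bp from the start of Gata3, the factor of type 2 helper T cells. There H3K27ac was 2.71 and 0 normalized tags at baseline, 18.6 and 27.9 at 1 h, 11.6 and 3.04 at 6 h and 5.94 and 8.53 at 24 h, with both 1 h libraries above every other. The Il1f9 promoter, of an IL-1 family cytokine, had 2.71 and 0 normalized tags at baseline and 27.1 and 5.85 at 1 h. It had 16.9 and 4.26 at 6 h. Its 24 h values were back at 2.55 and 1.31. At an intergenic region nearest Fas, the death receptor, the values were 3.39 and 0 at baseline and 34.8 and 9.98 at 1 h. They were 22.3 and 4.26 at 6 h and 7.64 and 5.91 at 24 h.

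**Figure D2:**
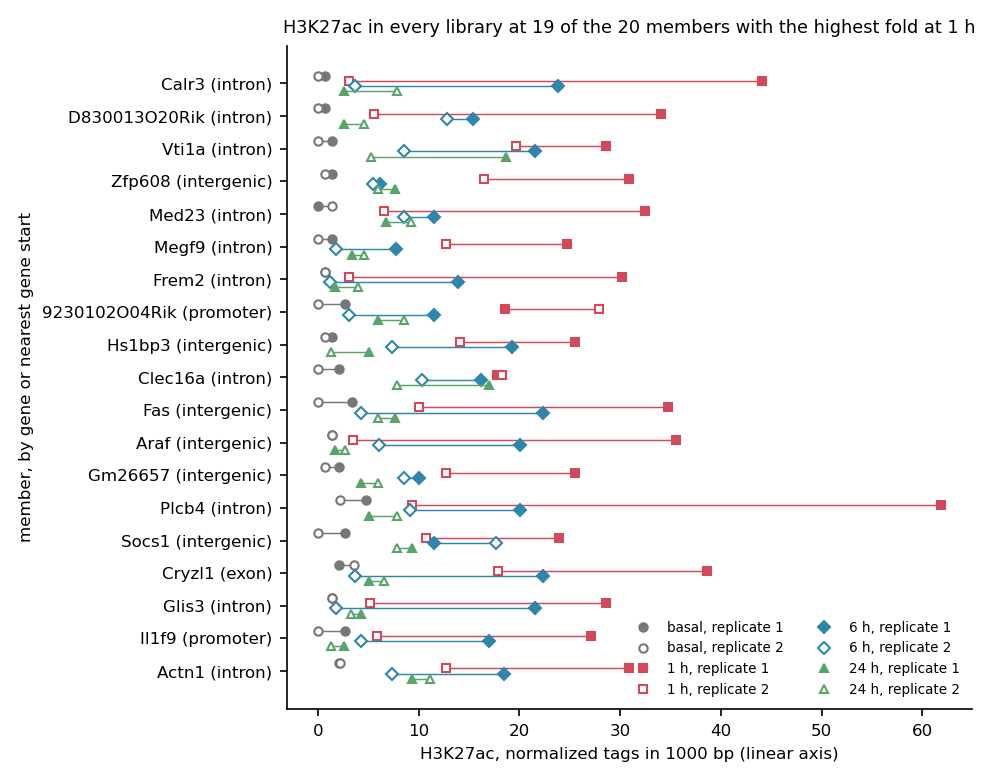
H3K27ac in normalized tags on a linear horizontal axis for 19 of the 20 members with the largest fold at 1 h (rows), with filled symbols for replicate 1, open symbols for replicate 2, and a colour and symbol for each time, joined by a line within a time. The basal symbols lie near 0 in every row, and the 1 h libraries differ between replicates, as at Calr3 with 44.1 and 3.1.

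In 18 members the fold was under 1.5 at both 6 and 24 h (listed after their values were seen). In an intron of Stk16, a serine/threonine kinase gene, H3K27ac was 6.78 and 9.27 normalized tags at baseline, 30.9 and 33.0 at 1 h, 11.6 and 5.48 at 6 h and 9.34 and 11.2 at 24 h. An intergenic region nearest Rgs1, a regulator of G protein signalling, had 33.9 and 29.9 at baseline, 95.8 and 86.1 at 1 h, 63.1 and 23.7 at 6 h and 23.8 and 31.5 at 24 h. In both, each 1 h library was above all the other libraries. The promoter of Id1, an inhibitor of basic helix-loop-helix factors, had 4.75 and 11.4 at baseline, 20.9 and 29.9 at 1 h, 16.2 and 6.69 at 6 h and 11 and 9.84 at 24 h. Others were at or nearest Atg16l1, Fmnl2, Rgs7bp, Bicd2, Sltm, Krr1, Frmd4a, Zc3hav1, Map3k8, Lrp8, Snd1, Trank1, Exoc4 and Tmem243. STAT6 had a 1 h peak in 15 of the 18.

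Members lay mostly away from gene starts. By the deposited annotation 129 (55.4%) were intronic, against 43.5% of all regions, 82 (35.2%) intergenic, against 32.8%, and 9 (3.86%) at promoters, against 16.1%. The median distance to the nearest gene start was 27.2 kb, against 14.8 kb over all regions. Their GC content was 43.6%, against 48.9%. They were spread over 20 chromosomes, and 11 overlapped a neighbouring member, which leaves 222 distinct loci. Within 25 kb, 82 members (35.2%) had another region raised at 1 h, against 7.76% of all regions, and 33 had one raised at every time. This count uses the same 1 h H3K27ac values as the rule and includes neighbours that overlap and share tags, so it is a description. One cluster of 7 members (named after its values were seen) filled 16.1 kb at Sfi1 and Eif4enif1 on chromosome 11, with basal means of 16 to 32.5 normalized tags, 1 h means of 55.8 to 85.4 and a STAT6 peak in 0 of 7.

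Promoter members with the highest 1 h means were those of Fyn, Tbc1d16 (2 overlapping regions), E330033B04Rik and Id1. At Fyn, a Src family kinase, H3K27ac was 57.7 and 40.6 normalized tags at baseline, 179 and 81.9 at 1 h, 103 and 71.2 at 6 h and 73.0 and 40.7 at 24 h. This was a 2.62-fold rise from a level well above that of most members.

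Regions of 5 gene lists were looked up among the members. None of 129 regions annotated to 33 immediate early genes, none of 125 at 22 genes of Janus kinase and STAT6 signalling and its feedback, and none of 115 at 19 IL-4 macrophage genes was a member. Of the regions at the IL-4 macrophage genes, 15 were raised at 1 h and 12 of these at every time, and for the signalling genes the counts were 11 and 9. Intergenic members did have Dusp4 and Myc of the immediate early list and Socs1 of the signalling list as nearest gene. No region of 15 interferon-stimulated genes was a member. Of 105 regions at 28 inflammatory genes, 1 was, in intron 1 of 24 of Nfkb1, which encodes the p105 and p50 subunits of NF-κB. It had 12.2 and 4.99 normalized tags at baseline, 38.6 and 24.4 at 1 h, 24.6 and 13.4 at 6 h and 12.7 and 19 at 24 h. Members being 0.299% of all regions, lists of 42 to 129 regions would hold fewer than 1 each at that share, and nothing is read from these counts.

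Around the thresholds of the rule, values inside and outside were close. The members nearest the fold limit were at Rasgrp2 (2.51-fold), Pde4d (2.52-fold) and Tmem243 (2.53-fold), and the regions just outside it at Pde4d (under the limit at 2.496-fold), Nrp2 and Gm10073 (2.49-fold each). For the level, the members nearest above 16 normalized tags were at Cacna2d1, Hjurp and Cdk6 (each 16.1), and those just below at Lpcat2, Dap and Atp8b4 (each 15.9).

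STAT6 was present at most members at 1 h and at fewer later. A STAT6 peak at 1 h overlapped 149 members (63.9%), against 72.5% of the regions raised at every time and 29.3% of all regions. At 6 h it overlapped 102 (43.8%, 30.5% of all regions) and at 24 h 112 (48.1%, 44.4% of all regions), while for the regions raised at every time these shares were 71.7% and 77.7%. At baseline 46 members (19.7%) had a STAT6 peak, against 36.4% of all regions. In 113 members (48.5%) a 1 h peak was present without a basal one, against 8.28% of all regions, and in 26 (11.2%) the peak was present at 1 h alone, against 1.41%. In 65 members (27.9%) no list held a peak, against 45.5% of all regions and 12.5% of those raised at every time. The STAT6 lists held 30589 peaks at baseline, 24376 at 1 h, 23884 at 6 h and 39537 at 24 h. The part that list size, depth and enrichment had in these differences between times was not tested.

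Chromatin accessibility (ATAC-seq peaks as deposited) was also listed most often at 1 h. An ATAC peak was listed for 202 members (86.7%) at 1 h, for 121 (51.9%) at baseline, for 76 (32.6%) at 6 h and for 61 (26.2%) at 24 h. At 83 members (35.6%) the peak was listed at 1 h alone, against 17.4% of the regions raised at every time and 9.19% of all regions. Over all regions the shares were 72.1% at baseline, 73.4% at 1 h, 58.4% at 6 h and 60.2% at 24 h.

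EGR2, the later factor, had few peaks in the members. An EGR2 peak overlapped 6 members (2.58%) at baseline, 19 (8.15%) at 1 h, 9 (3.86%) at 6 h and 35 (15%) at 24 h. Over all regions the shares were 11.6% at baseline, 18.2% at 1 h and 17.1% at 6 h. The share at 24 h was 48.2% for regions raised at every time and 35.3% for all regions. PU.1 peaks overlapped 109 members (46.8%) at baseline and 134 (57.5%) at 24 h, against 62.3% and 65.1% of all regions. C/EBPβ peaks overlapped 40 (17.2%) and 100 (42.9%), against 20.8% and 38.0%. PPARγ, a nuclear receptor that acts in IL-4 macrophages, had peaks in 2 (0.858%) and 48 (20.6%), against 8.28% and 37.3%. For the regions raised at every time the 24 h shares were 74.7%, 59.1% and 50.8%.

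**Figure D3:**
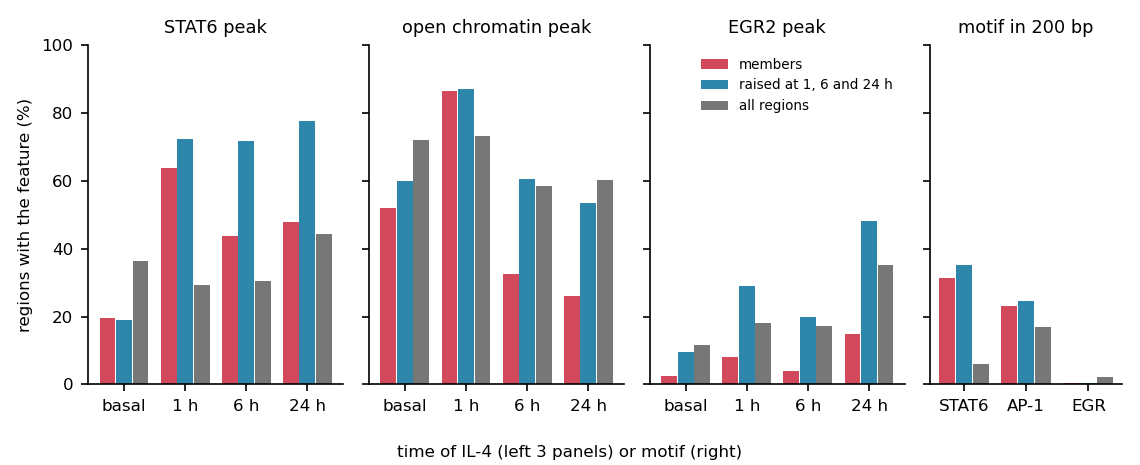
Share of regions, in percent, with a STAT6, open chromatin (ATAC-seq) or EGR2 peak at each time and with the STAT6-type, AP-1 or EGR motif in the central 200 bp, as bars from 0 for members, regions raised at every time and all regions. STAT6 at 1 h overlaps 63.9% of members, and EGR2 at 24 h overlaps 15% of members against 48.2% of the regions raised at every time.

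The STAT6-type motif went with the STAT6 peak. It was in the central 200 bp of 66 of 149 members with a 1 h STAT6 peak (44.3%), against 47.1% of regions raised at every time with such a peak and 13.2% of all regions with one. Without a peak it was in 7 of 84 members (8.33%), against 3.05% of all such regions. Its 84 matches lay a median of 48.5 bp from the region centre, and 44 were within 50 bp. As only the central 200 bp were searched, matches spread evenly there would lie at about such distances, and no centring is read from them. In the whole 1000 bp, 134 members (57.5%) held it, against 23.9% of all regions. The STAT motif with a shorter spacer, TTCNNNGAA, was in 24 members (10.3%, 5.63% of all regions), AP-1 (TGANTCA) in 54 (23.2%, 16.8%), NF-κB (GGG and TTTCC with 2 bases of any kind between them) in 12 (5.15%, 1.59%), PU.1 (GAGGAAGT) in 21 (9.01%, 8.38%) and C/EBP (TTGCNNAA) in 34 (14.6%, 12%). EGR (GCGNGGGCG) was in 1 member (0.429%, 2.15%) and CRE (TGACGTCA) in none, against 0.817% of all regions. Both strands were searched and matches of different motifs could overlap.

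These shares were recomputed in the members that met the rule with each 1 h library alone. Of these 52, 42 (80.8%) had a STAT6 peak at 1 h, 27 (51.9%) the STAT6-type motif and 21 (40.4%) an ATAC peak at 1 h alone. In the 152 members under 2.5-fold at 6 and 24 h the shares were 67.1%, 30.9% and 30.9%. Applying the rule with replicate 1 alone at 1 h gave 1064 regions with shares of 53.8%, 19.2% and 18.9%, and with replicate 2 alone 148 regions with shares of 62.8%, 33.1% and 37.2%. Median-ratio scaling gave 1106 regions with 60.3%, 25.7% and 27.5%.

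Pol II, which the rule did not use, was higher at 1 h over most members, although no single member passed the test. The median over members was 8.11, 5.62, 3.75 and 5.06 normalized tags in the 4 basal libraries, 12.7 in the single 1 h library, 9.86 and 6.83 at 6 h and 7.34, 8.65 and 5.13 at 24 h. The 1 h library lay above all 4 basal libraries in 146 members (62.7%), against 15% of all regions, and below all 4 in 6, against 30.5%. The median log2 fold change at 1 h was 1.12 (quartiles 0.49 to 1.81, median SE 0.77), against -0.18 over all regions, and it was above 0 in 209 members (89.7%), against 40.8%. The 1 h library had 26.7% of its tags inside the regions, and the 4 basal libraries 34.6%, 40.1%, 33.5% and 28.2%. The median basal mean was 6.15 normalized tags over members and 14.1 over all regions. The part that enrichment and starting level had in these contrasts was not tested.

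In limma fitted over all regions on log2(normalized tags + 1), in which the lone 1 h library was assumed to vary like the others, 0 of 233 members passed an adjusted p of 0.05 at 1 h. Over all regions 0.0462% passed as higher and 0.0449% as lower. At an unadjusted p under 0.05 there were 64 members, 63 of them higher, against 10.0% of all regions. The smallest adjusted p was 0.105. The 1 lower member was the intergenic region nearest Tmem125, with Pol II of 13.7, 2.41, 9.65 and 28.4 normalized tags at baseline and 0 at 1 h, and H3K27ac of 0 and 46.1 in the 1 h libraries. On the recovered reads edgeR called 1 member, at Rps6kc1, and DESeq2 2, at Rps6kc1 and Anxa3, all higher. Over all regions edgeR called 126 higher and 9 lower, and DESeq2 271 and 579. Without basal replicate 1, limma called 5 members, at Rps6kc1, Gng12, Zc3h12a, Pde4d and 9230102O04Rik, with 404 regions higher and 480 lower over the whole table.

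At Rps6kc1, an intronic region near the start of a ribosomal S6 kinase family gene, Pol II was 13.1, 7.22, 10.2 and 8.10 normalized tags at baseline, 61.9 at 1 h, 25.2 and 11.2 at 6 h and 22.7, 29.1 and 18 at 24 h (log2 fold change at 1 h 2.59, SE 0.60, limma adjusted p = 0.105). The 1 h library stood above all others. At Anxa3, which encodes an annexin, Pol II was 47.4, 40.1, 31.1 and 23.3 at baseline and 171 at 1 h (2.29, SE 0.61, limma adjusted p = 0.159). At Vti1a the region described before had 5.62, 7.22, 4.82 and 3.04 at baseline and 22.9 at 1 h (2.00, SE 0.61, limma adjusted p = 0.223). At the region nearest Rgs1 Pol II was 4.99, 3.21, 0.54 and 6.08 at baseline, 33.0 at 1 h, 12.6 and 2.44 at 6 h and 6.67, 23.2 and 6.41 at 24 h, with overlap between the basal libraries and both later times. At Med23 near Arg1 Pol II was 18.1, 11.2, 22 and 9.11 at baseline and 14.2 at 1 h, within the basal range. Of the 20 members with the largest H3K27ac fold, 19 had a Pol II change above 0 and 14 a 1 h value above all basal libraries.

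At 6 and 24 h Pol II over the members was closer to baseline. These comparisons share the basal libraries with that at 1 h. The median log2 fold change was 0.39 at 6 h, against -0.02 over all regions, and 0.21 at 24 h, against -0.02. In limma 0 members passed at 6 h (0.428% of all regions higher, 0.137% lower) and 0 at 24 h (0.503% and 0.174%). Unadjusted p was under 0.05 in 21 members at 6 h, against 10.2% of all regions, and in 19 at 24 h, against 9.55%. Both 6 h libraries lay above all basal libraries in 34 members (7.78% of all regions), and all 24 h libraries in 22 (3.67%). They lay below all basal libraries in 6 members at 6 h (9.84%) and in 0 at 24 h (5.04%). At 6 h edgeR called 0 members (22 at an unadjusted p under 0.05), against 413 higher and 96 lower over all regions. DESeq2 called 1 as lower, at Afdn, against 675 higher and 561 lower. At 24 h edgeR called 1 (Ppp2r3a) as higher, against 445 higher and 137 lower over all regions. DESeq2 called 2 (Ppp2r3a and Serpina3g) as higher, against 747 higher and 458 lower.

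**Figure D4:**
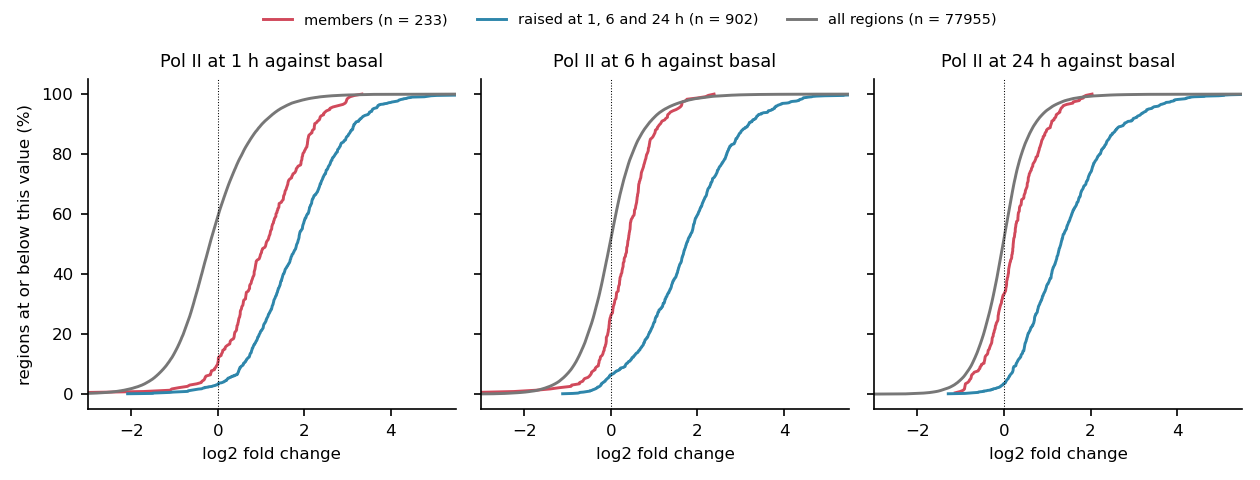
Cumulative share of regions by Pol II log2 fold change over basal at 1, 6 and 24 h, for members, for regions raised at every time and for all regions. The member curve lies to the right of all regions at 1 h, with medians of 1.12 and -0.18, and nearer to it at 24 h, with 0.21 and -0.02.

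In the other strains only 24 h was measured, the time at which the members of C57 were under the threshold. Regions of each strain's own table were matched to members by centres within 500 bp. BALB gave 82 matched regions, NOD 110, PWK 91 and SPRET 76, and 83 members matched in none. The values below are of the matched regions alone, and whether they stand for the unmatched members was not tested. An ATAC peak at 1 h alone was listed for 35.6% of members, a time these strains lack. Over all members the median basal mean in C57 was 5.9 normalized tags. The median of the matched regions' means was 12.7 normalized tags at baseline in BALB and 21 at 24 h. In NOD it went from 13.7 to 20.3, in PWK from 22.8 to 31.4 and in SPRET from 14.8 to 20.0. Median log2 fold changes were 0.72, 0.61, 0.45 and 0.59, against -0.30, -0.20, -0.18 and -0.09 over all regions of these tables. Median basal means over all regions were 43.5 normalized tags in BALB, 29.1 in NOD, 34.9 in PWK and 32.5 in SPRET. In 24 h replicate 2, 28.7%, 42.0%, 38.1% and 39.6% of tags lay inside the regions, below both basal libraries of each strain. The part that starting level and enrichment had in this contrast was not tested. Both 24 h libraries lay above both basal libraries in 38 regions in BALB (13% of all regions there), 43 in NOD (16.6%), 31 in PWK (14.6%) and 30 in SPRET (18.2%). All 24 h libraries were below the basal ones in 4 regions in BALB (28.8% of all regions), 7 in NOD (27.6%), 4 in PWK (25.3%) and 11 in SPRET (23.9%). Of 35 members matched in all 4 strains, 16 had a fold change above 0 in each and 4 below 0 in each.

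In limma without a replicate block 4 were called higher in BALB (1.6% of all regions) and 4 in SPRET (0.994%), 0 in NOD (0.0566%) and 0 in PWK (0.487%). None was called lower in this fit in any strain, against 0.653% of all regions in BALB, 0.192% in SPRET, 0.0482% in PWK and 0% in NOD. At an unadjusted p under 0.05 there were 21 in BALB (11.9% of all regions), 24 in NOD (12.4%), 8 in PWK (10.6%) and 18 in SPRET (12.2%). On the recovered reads edgeR called 0 in NOD (25 unadjusted) and PWK (10 unadjusted), and DESeq2 0 in both (15 and 7). Over all regions of NOD edgeR called 89 higher and 2 lower, and DESeq2 656 and 539. For PWK these were 479 and 100 with edgeR and 345 and 106 with DESeq2. In BALB the largest change was at Cep250, a centrosome gene, with 5.14 and 1.19 normalized tags at baseline and 35.4 and 12.4 at 24 h (log2 2.59, SE 0.58, limma adjusted p = 0.00136). The others were intergenic regions nearest Entpd3, Ibtk and Cited2. In SPRET a region at Rnf4, a SUMO-targeted ubiquitin ligase gene, had 17.1 and 15.8 at baseline and 164 and 78.6 at 24 h (log2 2.72, SE 0.42, limma adjusted p = 0.00369). There the others were in introns of St7 and Clpb and at an intergenic region nearest Fkbp5, which encodes a co-chaperone. In BALB edgeR called 1 of its 4, against 690 higher and 208 lower over all regions, and DESeq2 0, against 417 and 248. In SPRET edgeR called 7, against 963 and 263, and DESeq2 5, against 583 and 171, all higher. Leaving out any 1 library left 1 in a group. Not all of limma's calls in BALB then stood, and those in SPRET did not. Whether the effect differed between strains was not tested.

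**Figure D5:**
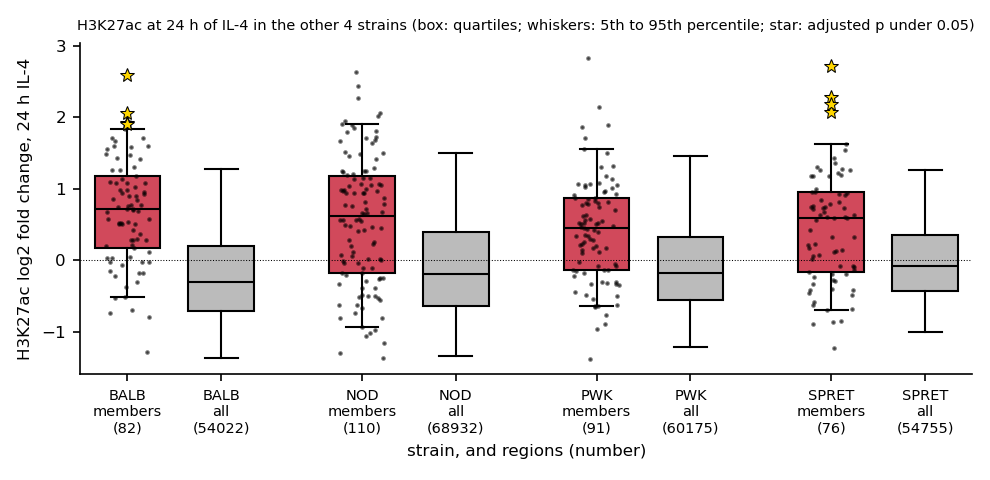
H3K27ac log2 fold change at 24 h over basal in BALB, NOD, PWK and SPRET, for the regions matched to members (points and red boxes) and for all regions of each table (grey boxes). Boxes show quartiles and median, whiskers the 5th to 95th percentile and stars regions called by limma. The medians of the matched regions, 0.72, 0.61, 0.45 and 0.59, lie above those of all regions.

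H3K4me2 marks enhancers and promoters, and H3K4me3 mainly promoters. In C57 both were measured at baseline and 24 h, and 140 members matched a region of that table. The median H3K4me2 was 20.4 normalized tags at baseline and 19.4 at 24 h, against 46.0 and 29.4 over all regions. Its median log2 fold change was -0.26, against -0.69 over all regions, and it turned to 0.39, against -0.01, with median-ratio scaling, so its direction is set by the scaling. In limma 1 region was called higher (0.179% of all regions) and 0 lower (0.0576%). It was the intergenic region nearest Tmem125, with 7.35 and 14.1 normalized tags at baseline and 31.0 and 52.7 at 24 h (log2 1.88, SE 0.49, limma adjusted p = 0.0493). The count was 0 with edgeR, 0 without either basal library or 24 h replicate 2, and 38, of which 28 were lower, without 24 h replicate 1, a setting that called 34426 of all 67742 regions lower and 522 higher. H3K4me3 over the members was low, with medians of 1.58 and 3.39 against 4.50 and 6.21 over all regions. In limma 0 passed (0% of all regions), with 23 at an unadjusted p under 0.05 (19.5%), and edgeR and DESeq2 also called 0, with 23 and 9 unadjusted. Both 24 h libraries lay above both basal libraries in 68 of the 140 (27.1% of all regions) and below both in 3 (23.5%), and for H3K4me2 in 29 (6.83%) and 38 (61%).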

How the data were processed

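The authors mapped ChIP-seq reads with Bowtie2 to each strain's own genome, moved the positions to mm10 and built tag directories in HOMER, by the study's methods. Bowtie2 and HOMER versions are not given in the sources used here. The deposited signal values are tags per region of 1000 bp, scaled by the authors to 10000000 tags of each library, with replicates kept apart. Values times the library total gave whole reads within 0.1 read for 100% of 4132080 values, and edgeR 4.0.16 (quasi-likelihood) and DESeq2 1.42.0 were run on these reads as alternatives. Over the 77955 regions of the time course their counts of calls stand beside those of limma in the text. The EGR2 time-course table got no count test. The deposited score of each peak, given by the authors in their peak lists, was not used to choose peaks. The lists hold peaks that the authors kept as reproducible between replicates by IDR, and each stands for a group. Tables and lists of the Egr2 genotypes, and peak lists of other strains, were not used here, and 0 value columns matched no sample.

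Groups came from the labels. Each test was limma 3.58.1 (R 4.3.3, eBayes with a trend) with log2(normalized tags + 1) as the value over all regions of a table without a filter, with Benjamini-Hochberg adjusted p under 0.05. The time-course Pol II libraries entered 1 fit over all times. On this scale the change of a low region is understated. No p was computed for the H3K27ac values that chose the members. A peak was shared when it overlapped a region by 1 bp or more. Motifs were searched in mm10, and genes came from the deposited annotation (148 of 151 accessions matched a RefSeq symbol), with intergenic regions named by the nearest protein-coding start in GENCODE vM21. As a check of the build, 84.9% of 12523 promoter regions and 2.60% of 25569 intergenic regions lay within 1000 bp of a gene start. The tests were run on simulated reads, with changes placed only in regions above a minimum basal level. For Pol II the median member lay below that level, so the tests were not checked for such regions. Further steps ran in Python 3.11.15 (pandas 2.3.3, numpy 2.4.6, matplotlib 3.10.9).

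The members, gene lists, motifs and tests were chosen with earlier results of these data known. Named regions were the 20 largest folds among members whose 1 h libraries both exceeded both basal libraries, members at listed genes, members past the Pol II test at 1 h, the 3 regions on each side of each threshold and the 5 promoter members with the highest 1 h mean. Others are said to be chosen after their values were seen. The alternatives tried were the count tests, leaving out each library, median-ratio scaling, a replicate block, a pseudocount of 5, a fold of 2, and a minimum of 32 normalized tags or none. A few members are not reported here by name.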

Additional observations from a re-analysis of the deposited data

Results flagged for a closer look

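The 4 basal Pol II libraries were examined in 32 groups of values, 1 for each named region reported here and 1 for the median over members, for a library far from the rest, by its gap to the nearest other library as a share of the range. In 3 regions this share was above Dixon's critical value for 4 samples at the 95% level, and about 1 in 20 would pass by chance. Basal replicate 1 was the outlying library in each of the 3. At the region nearest Zfp608, a zinc finger gene, the share was 1, with Pol II of 0.62 normalized tags in replicate 1 and 0 in the other libraries, which is about 1 read. At Rasgrp2, which encodes a Ras activator, it was 0.905, with 36.8 normalized tags in replicate 1 against 3.22 to 6.42 in the others. At Tmem243 it was 0.889, with 18.7 normalized tags against 9.11 to 10.2. The Pol II call counts without this library stand with the other alternatives.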

How the results depend on the processing

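The set itself depended on its settings. Against 233 members, no minimum level gave 1067 regions (152 shared with the members), a minimum of 32 gave 101 (72 shared), median-ratio scaling gave 1106 (196 shared) and asking the rule of each 1 h library alone, added after the data were seen, gave 52. A pseudocount of 5 gave 172, a fold of 2 gave 294 and the replicate block 206. Leaving out 1 library gave 143 to 1064: 148 without 1 h replicate 1 (87 shared), 1064 without 1 h replicate 2 (198 shared), 458 without 6 h replicate 1 and 143 without 6 h replicate 2. Without 1 h replicate 1 the log2 fold of H3K27ac was -0.23 at Rasgrp2 and -0.15 at Cacna2d1, against 2.06 and 2.87 without 1 h replicate 2. The cause was not tested.

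Counts of called members, all 0 at Pol II, moved as follows. At 1 h they were 1 with median-ratio scaling (153 higher and 54 lower over all regions), 1 with edgeR (126 and 9) and 2 with DESeq2 (271 and 579). Leaving out 1 library gave 0 to 5, with 5 without basal replicate 1 (404 and 480 over all regions). All members called at 1 h were higher. At 6 h they were 1 with the replicate block, 1 with DESeq2 and 0 to 3 leaving out 1 library (3 without basal replicate 1, 1 without 24 h replicate 3). At 24 h they were 3 with the block (989 higher and 852 lower over all regions), 1 with edgeR and 2 with DESeq2. Leaving out 1 library gave 0 to 3. There was 1 without basal replicate 1 (892 and 367 over all regions) and 3 without 24 h replicate 3 (535 and 144). Same-numbered libraries share only a number in the labels, and the correlation of their deviations was 0.014 to 0.492. With the replicate block the H3K27ac calls at 24 h were 17 in BALB (4 without it), all higher, 37 in NOD (0), of which 33 higher, 11 in PWK (0), of which 10 higher, and 14 in SPRET (4), of which 13 higher. Over all regions the block called 4458 regions of NOD higher and 9281 lower, for BALB 1949 higher and 2193 lower, for SPRET 2367 higher and 1483 lower, and for PWK 2753 higher and 2895 lower. With the block H3K4me2 gave 2, against 249 higher and 127 lower over all regions. H3K4me3 gave 16, 14 of them higher, against 2681 higher and 8845 lower over all regions. BALB gave 1 with edgeR (690 higher and 208 lower over all regions) and 0 with DESeq2 (417 and 248). SPRET gave 7 with edgeR (963 and 263) and 5 with DESeq2 (583 and 171). Leaving out 1 library left 1 in a group, and the calls then changed in each strain. The median log2 fold change of the matched regions was then 0.43 to 1.06 in BALB and 0.23 to 0.92 in NOD. In PWK it was 0.14 to 0.80 and in SPRET 0.01 to 1.00. H3K4me2 gave 0 with a pseudocount of 5, 0 with a filter and 0 with edgeR. With median-ratio scaling it gave 6, all higher (270 higher and 8 lower over all regions). With DESeq2 it also gave 6, but 1 was higher and 5 were lower (49 and 8743 over all regions). H3K4me2 gave 0 to 38 leaving out 1 library (38 without 24 h replicate 1), which left 1 in a group.

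Depth limits the low end. A level of 16 normalized tags was 20.7 and 46.5 reads in the 1 h H3K27ac libraries, so basal values under 2 normalized tags rest on a few reads. The single 1 h Pol II library gives no spread of its own, and intervals cover counting error only.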
